A study of Mus musculus with 2 samples.

Results

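The 38 genes described here copy DNA or supply the nucleotides for it. They were picked by gene symbol, and all 38 were found among the 31053 features counted. By role they comprise 10 genes of origin licensing, 5 of helicase activation, 3 of the polymerases and primase, 6 of the sliding clamp and its loader, 3 of single-strand binding, 2 of Okazaki fragment joining, 5 of nucleotide supply and 4 of chromatin copying and fork checkpoint.

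The cells came from the skin of wild-type C57BL/6;CD1 mice at postnatal day 32, in anagen, when hair grows. They were sorted as hair follicle stem cells by surface CD34 and by H2BGFP, a fluorescent histone under the keratin 14 (K14) promoter, and sequenced with the 10x Chromium 3′ kit. The 2 libraries are replicates of 1 group, so no treatment, genotype or time was compared. Nothing in the labels says that they came from separate animals, so the libraries may be technical repeats. With library as a term in the fits, p-values measure how alike a difference between groups of cells was in these 2 libraries.

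Before a cell divides, origins of replication are licensed by loading the ring-shaped MCM helicase onto DNA with the help of ORC, CDC6 and CDT1. In S phase the helicase is switched on by CDC45 and the GINS complex, and polymerases, the PCNA clamp and ligase copy both strands. Many of these genes are transcribed under E2F factors shortly before and during S phase, whereas the genes of mitosis peak later, and adult hair follicle stem cells are known for long resting periods between bouts of division.

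Replicate 1 held 6592 barcodes with 52344178 unique molecular identifiers (UMIs, counted molecules), and replicate 2 held 5080 with 38678103. Kept cells had 1000 or more genes and no more than 10% of UMIs from mitochondrial genes, 3918 and 3041 cells with medians of 9955 and 9797 UMIs. Of all barcodes 11 were shared between the libraries, 3 of them among the cells kept. Likely doublets were kept, as 216 and 131 cells with the highest doublet scores, and were removed in an alternative. Of the kept cells 6837 fell in 5 clusters with high Krt5 and Krt14, the keratinocyte markers. The remaining 122 fell in a cluster led by fibroblast genes such as Col3a1 and in one led by Cd74 and Lyz2 of immune cells, and were left out. Cd34, the sorted surface marker, was detected in all 5 keratinocyte clusters at 22.6 to 131 CPM (counts per 1000000 UMIs of the cluster) in replicate 1 and 29.4 to 129.9 in replicate 2, lowest in the cluster led by Pthlh and Wfdc18.

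Words bound by E2F factors in the promoters are a feature that the choice of genes did not use. RefSeq windows of the 250 bases upstream of the start (GRCm38.p6) were found for 32 of the 38 genes, 39 windows in all. The bases after the window matched the beginning of a GENCODE transcript for 29 of the 39. Some windows lie wholly or partly inside the GENCODE gene, past its first annotated base, among them those of Cdc6, Mcm7, Dut, Rfc3, Hells and Tk1. The words TTTCCCGC, TTTCGCGC, TTTGCCGC and TTTGGCGC, on either strand and with overlaps allowed, occurred in 11 of these 39 windows (28.2%), against 1.86% of 32851 windows of all genes. In licensing, 5 of 9 genes with a window held such a word (Orc1, Cdc6, Mcm5, Mcm6 and Mcm7). None of the 5 nucleotide supply genes and none of the 7 mitotic genes used below held one. CCAAT, on either strand, occurred in 64.1% of the members' windows, in 7 of 7 windows of the mitotic genes and in 33.8% of all windows. TTTGAA or TTCGAA, letters of the cell cycle homology region, occurred in 17.9% of the members' windows and 17.1% of all windows. A match describes letters in the window and not a bound site.

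The first 4 windows below belong to genes that were lower in mitotic than in S-called cells and hold such words, and the last to Tk1, the gene with the largest fold the other way. They were picked for both traits. Of the other genes called lower, Mcm7 held a word, Mcm2, Mcm3, Cdt1 and Lig1 held none, and Mcm4 and Gins2 had no window. Of those called higher, Pola1 alone held a word. Whether the words go with the direction of the fold was not tested. They are printed with the E2F words in capitals and each read 5′ to 3′ on the gene's strand. Mcm6 lies at chr1:128359706-128359955 (minus strand), Mcm5 at chr8:75109259-75109508 (plus strand), Rfc3 at chr5:151651209-151651458 (minus strand), Hells at chr19:38930740-38930989 (plus strand), and Tk1, with no such word, at chr11:117826015-117826264 (minus strand).
Mcm6: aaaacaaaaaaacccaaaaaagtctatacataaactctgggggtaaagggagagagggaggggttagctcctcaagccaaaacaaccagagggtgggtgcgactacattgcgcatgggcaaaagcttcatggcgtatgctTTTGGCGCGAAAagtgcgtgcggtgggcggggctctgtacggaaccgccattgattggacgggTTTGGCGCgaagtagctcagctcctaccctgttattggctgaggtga
Mcm5: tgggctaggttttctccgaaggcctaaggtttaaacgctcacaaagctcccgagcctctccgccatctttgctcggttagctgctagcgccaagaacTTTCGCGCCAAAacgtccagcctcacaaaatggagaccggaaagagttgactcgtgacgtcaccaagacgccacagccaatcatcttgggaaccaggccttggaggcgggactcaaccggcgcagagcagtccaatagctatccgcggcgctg
Rfc3: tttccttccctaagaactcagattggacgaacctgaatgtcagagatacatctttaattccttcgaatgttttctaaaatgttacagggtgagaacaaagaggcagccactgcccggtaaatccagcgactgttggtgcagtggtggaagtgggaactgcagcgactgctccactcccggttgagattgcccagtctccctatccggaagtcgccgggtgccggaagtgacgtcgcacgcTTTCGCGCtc
Hells: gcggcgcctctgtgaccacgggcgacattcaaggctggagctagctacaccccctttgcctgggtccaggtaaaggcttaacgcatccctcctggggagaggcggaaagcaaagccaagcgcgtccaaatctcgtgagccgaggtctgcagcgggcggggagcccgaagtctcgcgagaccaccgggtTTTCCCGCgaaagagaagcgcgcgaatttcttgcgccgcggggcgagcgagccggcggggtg
Tk1: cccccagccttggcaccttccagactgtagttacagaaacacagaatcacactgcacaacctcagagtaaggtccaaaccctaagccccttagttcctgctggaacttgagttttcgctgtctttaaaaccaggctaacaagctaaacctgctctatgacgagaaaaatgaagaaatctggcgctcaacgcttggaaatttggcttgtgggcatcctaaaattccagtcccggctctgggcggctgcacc
The Mcm6 window holds 3 words, of which the first pair overlaps, starting 110, 106 and 47 bases before the start. Mcm5 also has an overlapping pair, at 153 and 149 bases, while Rfc3 has 1 word at 10 bases and Hells 1 at 62. These positions count from the end of the RefSeq window. The words of Rfc3 and Hells lie past the first annotated base of the GENCODE gene.

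To set the genes against mitosis in the same cells, each keratinocyte was thinned at random to 5000 UMIs, so that classes were called at equal depth, and 192 and 188 shallower cells were left out. Mitotic cells carried at least 3 UMIs of Ube2c, Cdc20, Ccnb1, Cenpf, Hmmr, Plk1 and Aspm, genes of mitosis. S-called cells carried 0 of these and at least 3 UMIs of 22 other S-phase genes, such as Ccne1, Dtl and Slbp, none of them among the 38. Cells in neither class carried 0 mitotic UMIs and at most 1 UMI of the S-phase list. The classes are named for these transcripts, and cells nearing mitosis were not told apart from cells in it. In replicates 1 and 2 the classes held 664 and 500 mitotic cells, 945 and 710 S-called cells, and 1027 and 773 cells in neither class. The other cells, 1022 and 816, were unclassed. Median depth before thinning was 12807.5 and 14800 UMIs in mitotic cells, 9937 and 10085 in S-called cells, and 9406 and 9051 in neither. Levels below are counts per 1000000 UMIs of the class (CPM), with replicate 1 given before replicate 2.

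Summed over the 38 genes, the level was 2084 and 2904 CPM in mitotic cells, 1982 and 2747 CPM in S-called cells, and 688 and 801 CPM in cells of neither class. Both classes lay above neither in each library, and they overlapped each other. The 7 mitotic genes, which made the classes, summed to 2149 and 2208 CPM in mitotic cells, 30.8 and 35.3 CPM in S-called cells and 12.2 and 9.03 CPM in neither. The fibroblast-led cluster, at median depths of 13140 and 15308.5 UMIs, held 443 and 684 CPM of the 38 genes. No correction for free RNA in droplets was made, and its part in the levels of the neither class was not tested.

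All 38 genes were higher in mitotic cells than in neither, with a median log2 fold change of 1.77 against −0.04 over all 12168 genes tested (edgeR's quasi-likelihood test, Benjamini-Hochberg adjusted p under 0.05). Of all genes tested 16.7% were called higher. All 38 were also higher in S-called cells than in neither, median 1.90, where 3.83% of all genes were called higher. In both comparisons the libraries of the groups did not overlap for any of the 38, but the share of all genes without overlap was not counted. Both comparisons share the neither class, which was cut for 0 mitotic UMIs and few UMIs of the S-phase list. Genes that rise and fall with these lists are therefore higher in the other classes by the way the classes were cut. The counts of the 38 genes called higher were 33 to 38 and 35 to 38 under every alternative run except the fit without a term for library. That fit called 23 and 12, beside 555 and 90 of all 12168 genes.

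**Figure D1:**
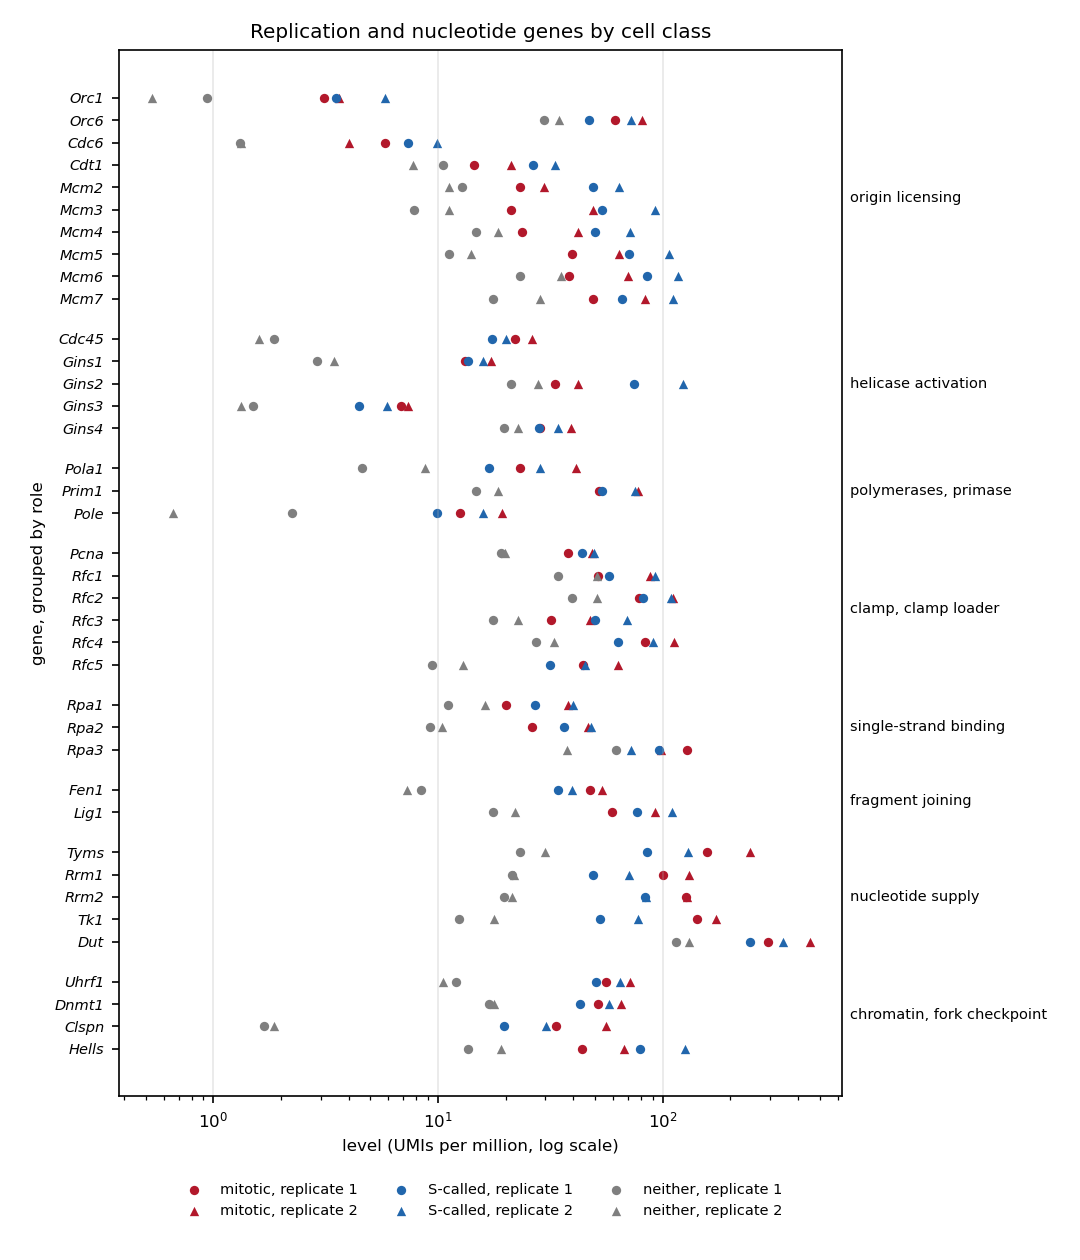
Level of each of the 38 genes (CPM, log scale) in mitotic, S-called and neither cells of replicate 1 (circles) and replicate 2 (triangles), grouped by role. Grey points of the neither class lie lowest for every gene, while red and blue points change order between the licensing genes and the nucleotide supply genes.

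In mitotic against S-called cells the genes were called in both directions. Of the 38 genes 10 were higher in mitotic cells, where 9.97% of all genes were called higher, and 11 were lower, where 7.68% were called lower. The genes lower in mitotic cells were Mcm2 to Mcm7, Cdt1, Gins2, Rfc3, Lig1 and Hells. The genes higher were Tk1, Rrm1, Tyms, Rrm2, Clspn, Pola1, Rfc4, Rfc5, Rpa3 and Fen1. Per library 18 genes were higher in both, 17 were lower in both and 3 (Gins1, Prim1 and Rfc2) went either way. For 19 genes the libraries of the classes did not overlap, 9 of them higher and 10 lower in mitotic cells. The share over all genes was not counted here either.

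The S-called class is a range cut from a score, and its minimum of 3 UMIs took in 25.8% and 25.4% of the keratinocytes. With a minimum of 6, chosen after the size of the class was seen, it held 262 and 226 cells. All 38 genes were again higher in both classes than in neither, where 14.5% (mitotic) and 8.96% (S-called) of all genes were called higher. Against S-called cells 23 genes were lower in mitotic cells (2.11% of all genes), none were higher (3.53% of all genes) by edgeR, and 33 were lower and 1 higher at an unadjusted p under 0.05. The 11 genes listed above as lower were all lower under both minimums. The 10 listed as higher were not called higher under the stricter one. Of them Fen1 alone was then called lower (log2 −0.53). Tyms, Rrm2, Clspn, Pola1, Rfc4, Rfc5 and Rpa3 had negative folds without passing, and Tk1 and Rrm1 kept positive ones. Licensing genes had the lowest median log2 fold of the 8 roles under both minimums, −0.80 at 3 and −1.67 at 6, and nucleotide supply genes the highest, 0.89 and −0.04. The roles between them changed order.

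**Figure D2:**
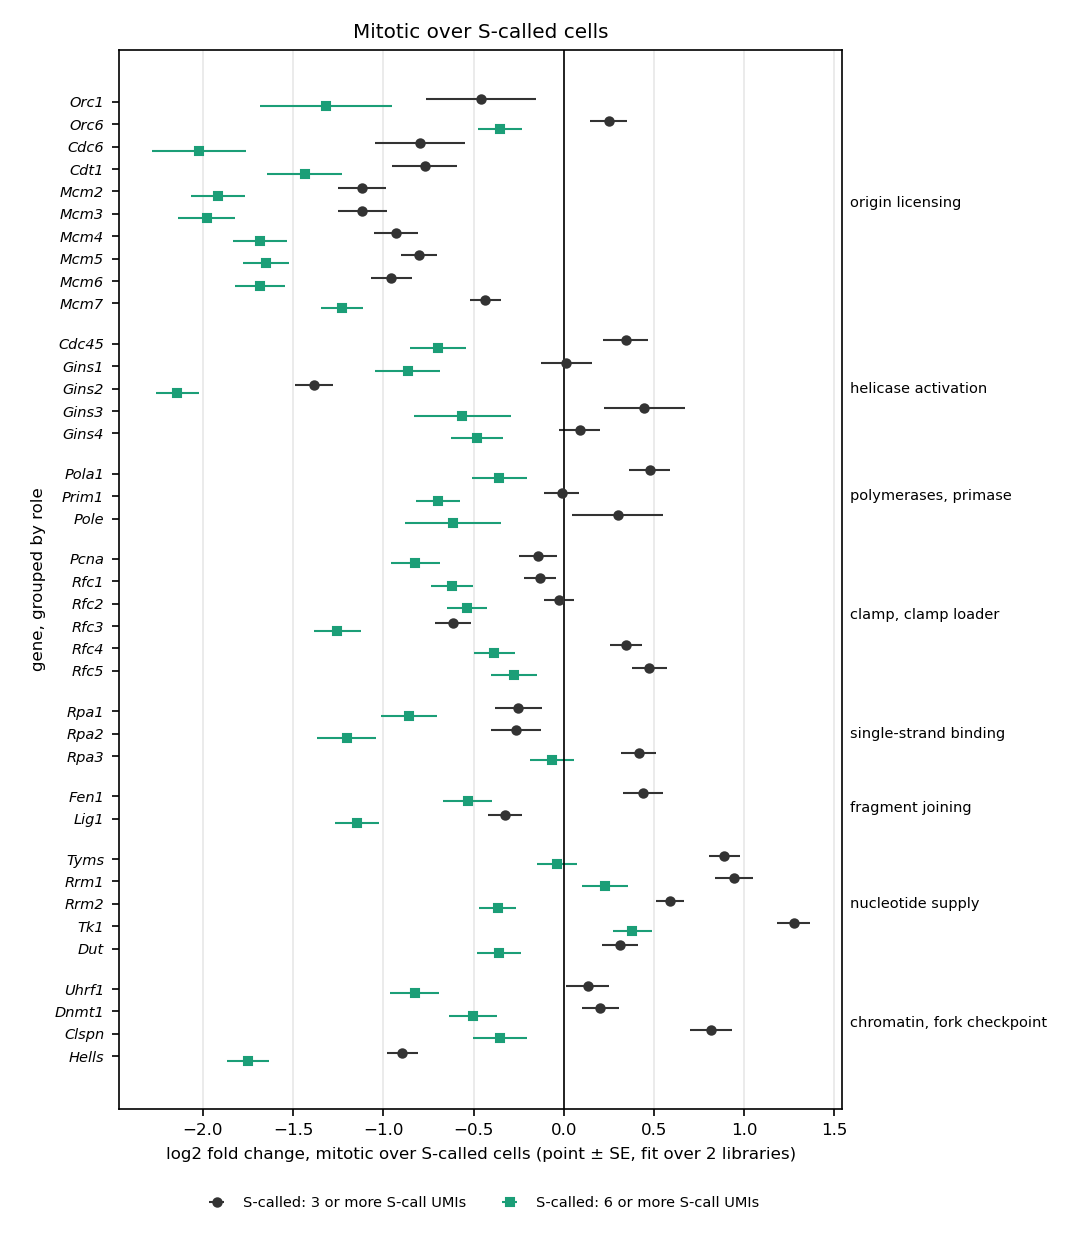
Log2 fold change of mitotic over S-called cells for each gene with its standard error, for S-called cells with at least 3 S-call UMIs (black circles) and at least 6 (green squares). Raising the minimum moved every gene to the left, with Gins2, Cdc6 and Mcm3 at the far left and Tk1 and Rrm1 to the right of 0 under both.

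Origin licensing genes were the role lowest in mitotic relative to S-called cells, with 7 of 10 called lower and none higher (at an unadjusted p under 0.05, 8 lower and 1 higher; DESeq2 called 5 lower and 0 higher). Mcm6, a subunit of the helicase ring, was at 38.2 and 70.0 CPM in mitotic cells, 85.4 and 116 CPM in S-called cells and 23.1 and 35.3 CPM in neither. Mitotic cells lay below S-called cells in both libraries, with a log2 fold of −0.96 ± 0.11 (SE, adjusted p = 0.000294 by edgeR). Mcm2, another ring subunit, was at 23.1 and 29.5 CPM in mitotic cells, 49.1 and 63.9 CPM in S-called cells and 12.8 and 11.2 CPM in neither (mitotic over S-called −1.12 ± 0.13, adjusted p = 0.000326 by edgeR). Mcm3 was at 21.1 and 48.9 CPM in mitotic cells, 53.6 and 91.9 CPM in S-called cells and 7.85 and 11.2 CPM in neither. Its fold was −1.12 ± 0.14 (adjusted p = 0.00039 by edgeR), and the classes did not overlap. Orc6, a subunit of the origin recognition complex, had the opposite sign, at 61.5 and 80.8 CPM in mitotic cells, 47.0 and 72.5 CPM in S-called cells and 29.7 and 34.4 CPM in neither. That difference did not pass the test (0.25 ± 0.10, adjusted p = 0.127 by edgeR) and turned to −0.35 with a minimum of 6. Cdt1, which loads the ring and overlaps Gm20388 on the same strand, was called lower (−0.77), whereas Cdc6, its partner, was at −0.80 without passing. Orc1 was the sparsest of the group, with 29 UMIs in each mitotic library and 10 and 4 in neither.

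In helicase activation, Gins2 alone passed the test. This subunit of the GINS complex was at 33.1 and 42.0 CPM in mitotic cells, 74.8 and 123 CPM in S-called cells and 21.0 and 27.9 CPM in neither. Mitotic cells stood nearer to neither than to the S-called cells, with a log2 fold of −1.38 ± 0.11 against S-called cells (adjusted p = 1e-05 by edgeR), the lowest of the 38. Gins3, of the same complex, was at 6.86 and 7.38 CPM in mitotic cells, 4.46 and 5.95 CPM in S-called cells and 1.495 and 1.33 CPM in neither, a fold of 0.45 ± 0.22 that did not pass (adjusted p = 0.199 by edgeR). Subunits of 1 complex thus had folds of opposite sign under a minimum of 3, which were both negative under a minimum of 6 (Gins2 −2.14, Gins3 −0.56). Cdc45, which completes the active helicase, was at 0.34 without passing, and Gins1 and Gins4 were at 0.01 and 0.09.

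Among the polymerases, Pola1, the catalytic subunit of polymerase alpha, was at 23.1 and 40.9 CPM in mitotic cells, 16.8 and 28.4 CPM in S-called cells and 4.58 and 8.76 CPM in neither. It was higher in mitotic cells within each library (0.48 ± 0.11, adjusted p = 0.0184 by edgeR), although the classes overlapped across libraries. Prim1, the primase subunit that makes RNA primers with it, was at 52.0 and 77.9 CPM in mitotic cells, 53.8 and 75.1 CPM in S-called cells and 14.8 and 18.5 CPM in neither. Its fold was −0.01 ± 0.10 (adjusted p = 0.946 by edgeR), with a different sign in each library. Pole, the leading-strand polymerase, was at 0.30 ± 0.25 without passing.

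Of the clamp and clamp loader, Rfc4 and Rfc5 were higher in mitotic cells, Rfc3 was lower and 3 did not pass. Rfc5 was at 44.1 and 63.2 CPM in mitotic cells, 31.3 and 44.9 CPM in S-called cells and 9.44 and 12.9 CPM in neither (0.47 ± 0.10, adjusted p = 0.00898 by edgeR). Rfc3 was at 31.7 and 47.7 CPM in mitotic cells, 49.97 and 69.3 CPM in S-called cells and 17.6 and 22.6 CPM in neither (−0.61 ± 0.10, adjusted p = 0.00264 by edgeR). These subunits of 1 loading complex therefore lay on opposite sides of 0, and with a minimum of 6 Rfc5 was at −0.28 without passing. Rfc2 was at 78.5 and 111 CPM in mitotic cells, 81.6 and 109 CPM in S-called cells and 39.4 and 51.1 CPM in neither, a fold of −0.03 ± 0.08. Pcna, the clamp itself, was at 37.8 and 48.3 CPM in mitotic cells, 43.8 and 49.5 CPM in S-called cells and 19.0 and 19.8 CPM in neither (−0.14 ± 0.11). A pseudogene copy, Pcna-ps2, is among the features, so reads of the copies may be split.

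Single-strand binding and fragment joining gave smaller differences. Rpa3, the smallest subunit of the single-strand binding protein RPA, was at 128 and 98.4 CPM in mitotic cells, 96.2 and 71.9 CPM in S-called cells and 61.8 and 37.3 CPM in neither. It was higher in mitotic than in S-called cells (0.42 ± 0.10, adjusted p = 0.0168 by edgeR), and it was the 1 gene of the 38 higher in replicate 1 than in replicate 2 in every class. Rpa2 was at 26.3 and 46.3 CPM in mitotic cells, 36.5 and 47.8 CPM in S-called cells and 9.16 and 10.4 CPM in neither, a fold of −0.26 ± 0.14 that did not pass, as for Rpa1 at −0.25. Fen1, the flap nuclease that trims Okazaki fragments, was at 47.4 and 53.8 CPM in mitotic cells, 34.1 and 39.6 CPM in S-called cells and 8.41 and 7.30 CPM in neither (0.44 ± 0.11, adjusted p = 0.0232 by edgeR). Lig1, the ligase that seals them, was at 59.5 and 92.1 CPM in mitotic cells, 76.8 and 109.7 CPM in S-called cells and 17.5 and 21.9 CPM in neither (−0.33 ± 0.09, adjusted p = 0.0376 by edgeR). The nuclease and the ligase of 1 step thus differed in sign. By DESeq2 neither passed (adjusted p = 0.187 for Fen1 and 0.233 for Lig1), nor did Rpa3 (adjusted p = 0.0686), and a minimum of 6 put Rpa3 at −0.07 and Lig1 at −1.14.

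Nucleotide supply genes stood highest in mitotic cells, with 4 of 5 called higher, both by edgeR and by DESeq2. Tk1, thymidine kinase, was at 142 and 173 CPM in mitotic cells, 52.7 and 77.7 CPM in S-called cells and 12.3 and 17.8 CPM in neither. Its mitotic libraries lay above both S-called libraries, with the largest fold of the 38 (1.27 ± 0.09, adjusted p = 4.99e-06 by edgeR). Tyms, thymidylate synthase, was at 158 and 246 CPM in mitotic cells, 84.7 and 129.8 CPM in S-called cells and 23.1 and 30.01 CPM in neither (0.89 ± 0.08). Rrm1 and Rrm2, the subunits of ribonucleotide reductase, were higher in mitotic cells by 0.94 and 0.59. Dut, which removes dUTP, was at 293 and 449.8 CPM in mitotic cells, 245 and 342 CPM in S-called cells and 115 and 130.3 CPM in neither, a fold of 0.31 ± 0.10 that did not pass (adjusted p = 0.0592 by edgeR). Under a minimum of 6 none of the 5 passed in either direction by edgeR (at an unadjusted p under 0.05, 1 was higher and 2 were lower), and Tk1 was at 0.38 ± 0.11 (adjusted p = 0.057 by edgeR). Of the summed UMIs of the 38 genes, nucleotide supply took 39.4% and 38.8% in mitotic cells, 26.0% and 25.7% in S-called cells and 27.8% and 27.6% in neither. Licensing genes took 13.4% and 15.4% in mitotic cells, 23.1% and 24.8% in S-called cells and 18.8% and 20.3% in neither.

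In the last role, Hells and Clspn went in opposite directions. Hells, a chromatin remodeller that aids DNA methylation, was at 43.7 and 67.5 CPM in mitotic cells, 78.8 and 126 CPM in S-called cells and 13.6 and 19.1 CPM in neither (−0.89 ± 0.09, adjusted p = 7.16e-05 by edgeR). Clspn, the claspin adaptor of the fork checkpoint, was at 33.6 and 55.9 CPM in mitotic cells, 19.6 and 30.4 CPM in S-called cells and 1.68 and 1.86 CPM in neither. It had the largest fold of the 38 against neither (4.54 ± 0.18) and was higher in mitotic than in S-called cells (0.81 ± 0.12, adjusted p = 0.00111 by edgeR), which a minimum of 6 turned to −0.35 without passing. Uhrf1 and Dnmt1, which copy DNA methylation at the fork, were at 0.13 and 0.20 without passing.

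The rest of the replication machinery gave a like picture in the comparisons with neither. Of 30 further replication genes 25 were higher in mitotic cells than in neither and 26 were higher in S-called cells than in neither, with none lower in either comparison by edgeR (none at an unadjusted p under 0.05 and none by DESeq2). In mitotic against S-called cells 7 of the 30 were higher and 1 was lower, beside 9.97% higher and 7.68% lower over all genes, and a minimum of 6 gave 2 higher and 12 lower. Dbf4, the activator of the CDC7 kinase that fires origins, was at 88.6 and 88.3 CPM in mitotic cells, 20.7 and 20.8 CPM in S-called cells and 12.6 and 10.9 CPM in neither, a fold of 2.07 ± 0.10 in mitotic over S-called cells. Asf1b, a histone chaperone, was at 1.91 ± 0.13. Both stayed higher with a minimum of 6, at 1.51 ± 0.14 (adjusted p = 1.07e-05 by edgeR) and 0.68 ± 0.16 (adjusted p = 0.0255 by edgeR). At the other end, Chaf1b, of the histone chaperone CAF-1, was at −0.70 without passing, and Timeless, a fork protector, fell by 0.51 on the log2 scale. Of 20 further nucleotide genes 12 were higher and 1 was lower in mitotic cells than in neither, and 11 were higher in S-called cells than in neither. In mitotic against S-called cells 2 of the 20 were higher and 2 were lower, near the shares of 9.97% and 7.68% over all genes, and a minimum of 6 gave 0 higher and 4 lower. Dck and Dtymk, kinases that salvage deoxynucleosides and thymidylate, were at 0.61 and 0.32, while Impdh1, of guanine nucleotide synthesis, was at −0.52 without passing and Paics, of purine synthesis, was lower at −0.41.

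Along the number of mitotic UMIs per cell, the summed level of the 38 genes was highest below the last bin. Keratinocytes were binned by their UMIs of the 7 mitotic genes among 5000. Per cell, the median count over the 38 genes in replicate 1 was 4 UMIs in cells with 0 mitotic UMIs, 6 with 1 to 2, 8.5 with 3 to 9 and 7 with 10 or more. In replicate 2 the medians were 4, 9, 15 and 9 UMIs. Cells with at least 10 UMIs of the 38 genes made up 17.6% and 22.4% of the cells with 0 mitotic UMIs, 41.4% and 47.7% at 1 to 2, 46.8% and 63.1% at 3 to 9, and 34.1% and 47.4% at 10 or more. On all UMIs, without thinning, these shares were 39.2% and 40.6%, 61.3% and 64.2%, 77.8% and 83.6%, and 81.4% and 87.9%. By these shares the last bin was below the third after thinning and not on all UMIs. By the median count it was below the third on all UMIs as well, with 24.5 and 45 UMIs at 3 to 9 and 19 and 28 at 10 or more. Median depth was 9544 and 9456 UMIs in the first bin and 13662 and 15465 in the last. Of the 932 and 898 cells with at least 10 UMIs of the 38 genes, 46.0% and 47.0% carried 0 mitotic UMIs.

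The role groups were highest in different bins. Licensing genes summed to 256 and 331 CPM at 0 mitotic UMIs, 419.9 and 570.0 CPM at 1 to 2, 337 and 549 CPM at 3 to 9, and 183 and 262 CPM at 10 or more, so the last bin was below the first. Nucleotide supply genes summed to 315 and 377 CPM, 699 and 759.8 CPM, 896 and 1190.3 CPM, and 717 and 912 CPM in the same bins, and stayed well above their first bin. Their share of the 38 genes' UMIs was 26.4% and 26.2% in the first bin, 31.6% and 28.4% in the second, 37.3% and 35.9% in the third and 41.6% and 43.1% in the last. By the mean of the libraries, no gene was highest at 0 mitotic UMIs, 12 were highest at 1 to 2, 25 at 3 to 9 and 1, Tk1, at 10 or more. Cdc6, Mcm2 to Mcm7, Gins2, Rfc3 and Hells were highest at 1 to 2 in both libraries. Between 3 to 9 and 10 or more, 32 of the 38 genes were lower in the last bin in both libraries and none were higher in both. For these counts by bin the shares over all genes were not counted, so they are not set apart from genes at large.

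**Figure D3:**
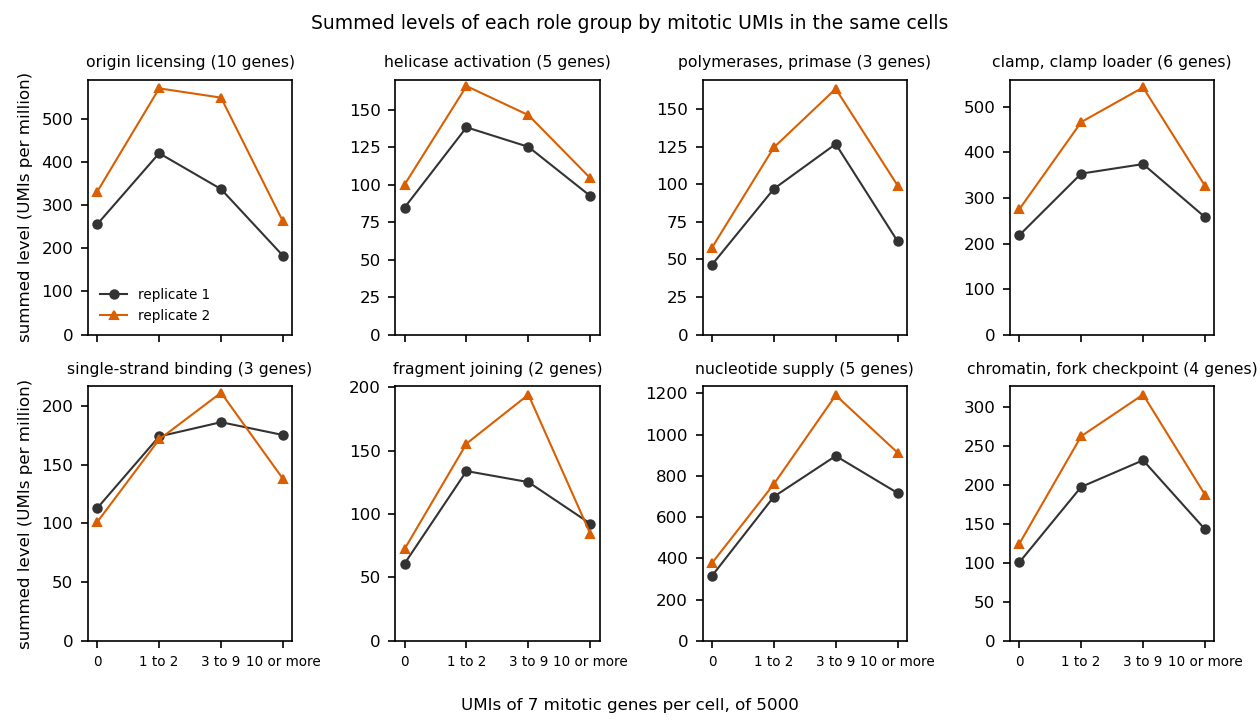
Summed level (CPM) of each role group in keratinocytes thinned to 5000 UMIs, by the number of UMIs of the 7 mitotic genes per cell, for replicate 1 (circles) and replicate 2 (triangles). Licensing and helicase activation genes peak at 1 to 2 mitotic UMIs, the nucleotide supply genes peak at 3 to 9, and every role is lower at 10 or more than at 3 to 9.

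Across single cells of 1 library the summed UMIs of the 38 genes and of the 7 mitotic genes had a Spearman correlation of 0.297 over 3658 cells and 0.339 over 2799 cells. Among cells with at least 3 mitotic UMIs it was −0.122 over 664 cells and −0.241 over 500 cells. With the 22 S-call genes it was 0.535 and 0.587. The cells share their library and the thinned total, so these values describe the cells and carry no test.

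Few of the genes were called between follicle states that were drawn without the cycling cells. Clusters were drawn on the cells in neither class, with the 38 genes and other cell cycle genes left out, and every other cell was given the state of its nearest neighbours. The 5 keratinocyte states are labelled by 2 of their 10 leading genes, which need not be the first. These were Edn2 and Dio3 (state 1), Pthlh and Wfdc18 (state 2), Calml3 and Krt71 (state 3), Nppc and Scrg1 (state 4) and Fgf5 and Tagln (state 5). The first leading gene was Egln3 in state 1, Ly6d in state 3 and Hbb-bs in state 5, which also held Hba-a1. Between states 2 of the 37 genes tested were called, Clspn and Pcna, where 30.6% of all genes were called. Pcna was at 36.3 and 52.3 CPM in state 3, 24.9 and 23.9 CPM in state 4, and between 32.9 and 38.8 CPM in the other states of both libraries. It was higher in state 3 than in the mean of the other states (0.53 ± 0.14, adjusted p = 0.0256 by edgeR) and lower in state 4 (−0.67 ± 0.17, adjusted p = 0.0483 by edgeR), where 23.0% and 7.63% of all genes were called. Clspn and Cdt1 were also higher in state 3, at 0.62 ± 0.18 (adjusted p = 0.036 by edgeR) and 0.94 ± 0.22 (adjusted p = 0.013 by edgeR). State 3 pools several kinds of cell in unequal shares, 430 and 952 cells. Its summed level of the 38 genes was 1245 CPM in replicate 1 and 2739 CPM in replicate 2, the lowest and the highest of all states, so its calls rest on libraries that differ.

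Cells of the mitotic class made up 18.2% and 17.9% of keratinocytes after thinning (exact 95% intervals 16.9 to 19.4% and 16.5 to 19.3%, counting error only) and 24.1% and 23.3% on all UMIs. S-called cells made up 25.8% and 25.4% after thinning and 35.9% and 34.7% on all UMIs. By state, the mitotic share in replicates 1 and 2 was 16.5% and 15.5% in state 1, 20.9% and 19.6% in state 2, 11.8% and 22.7% in state 3, 24.0% and 11.3% in state 4 and 15.5% and 14.5% in state 5. States 1, 2 and 5 gave alike shares in both libraries, while states 3 and 4 reversed their order.

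Among cells of neither class alone, 2 of 27 genes tested differed between states, Rfc2 and Dut, where 30.4% of all genes were called. Dut was at 163 to 191 CPM in replicate 1 and 150.1 to 177 CPM in replicate 2 in states 4 and 5, and at 75.9 to 99.8 and 69.9 to 112 CPM in states 1 to 3. It was lower in state 2 (−0.66 ± 0.19, adjusted p = 0.0222 by edgeR) and higher in states 4 and 5 (0.62 ± 0.17 and 0.53 ± 0.17, adjusted p = 0.0466 and 0.0385 by edgeR), where 16.7%, 6.06% and 17.6% of all genes were called. Rfc2 was at 62.9 and 77.1 CPM in state 5 and at 29.4 to 67.4 CPM in the other states (0.65 ± 0.19, adjusted p = 0.0303 by edgeR). Rpa3 was lower in state 3 (−0.68 ± 0.22, adjusted p = 0.0419 by edgeR), where 19.7% were called.

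When clusters were drawn instead on cells of all classes, with the same genes left out, 36 of the 38 genes differed between clusters, where 54.6% of all genes were called. A bulge-like cluster was named from Krt24, Calml3, Grem1 and Fst, which stood on the list of bulge markers, the bulge being the stem cell niche of the follicle. Its 10 leading genes also held Npnt, Tgm5, Aqp3, Nppc, Capns2 and Krt6a, which were on no marker list. The bulge list held 15 genes. Those not named here were outside the 10 leading genes, and their levels in this cluster were not tabulated. The bulge-like cluster held the lowest summed level of the 38 genes of all keratinocyte clusters in both libraries, 805 and 893 CPM. In it 29 of 38 genes were lower than in the other clusters, where 8.69% of all genes were called lower, with a median log2 fold of −0.96. Mcm5 fell by 2.001 on the log2 scale there and Tyms fell by 1.81. Mitotic cells made up 4.89% and 0.599% of it (exact intervals 2.92 to 7.62% and 0.0726 to 2.15%), and 5.16% and 5.99% of its cells held at least 10 UMIs of the 38 genes. Its S-called share, 26.4% and 19.5%, stood beside 25.8% and 25.4% over all keratinocytes. This low level depended on the clustering. Among states drawn on cells of neither class at resolution 0.8, a state led by Krt24 also held Calml3 and Grem1. In it 2 of 37 genes were lower, beside 919 of all 10934 genes, with a median log2 fold of −0.07. The lowest median there, −0.72, was in a state led by Scrg1, with 6 of 37 genes lower, beside 232 of 10934.

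An inner-root-sheath-like cluster led by Krt25, Krt71, Krt28 and Krt27, keratins of the sheath that moulds the growing hair, held 2512 and 3820 CPM. In it 28 of 38 genes were higher, where 12.8% of all genes were called higher, with a median log2 fold of 1.14. Mitotic cells made up 43.1% of 72 cells and 48.1% of 79 cells, and 61.1% and 81.0% of its cells held at least 10 UMIs of the 38 genes. Its cells were the deepest, with median UMIs of 20581.5 and 18561 against 9350.5 and 8726 in the bulge-like cluster, and the part of depth in the fold was not tested. Among states drawn on cells of neither class at resolution 0.8, a state was led by Krt71, Krt25 and Krt27. In it 0 of 37 genes were called (5 at an unadjusted p under 0.05), beside 1531 of all 10934 genes, with a median log2 fold of 0.12. Of the clusters drawn on all cells, the one led by Sms and Gm973 held 2755 and 3368 CPM. That was the highest sum in replicate 1, whereas the sheath-like cluster was the highest in replicate 2. It had 35 of 38 genes higher, where 10.4% of all genes were called higher, from 33 cells in replicate 1 and 572 in replicate 2. A cluster with Fhl1, Tagln and Fgf5 among its leading genes had 12 of 38 genes lower, where 6.68% of all genes were called lower.

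**Figure D4:**
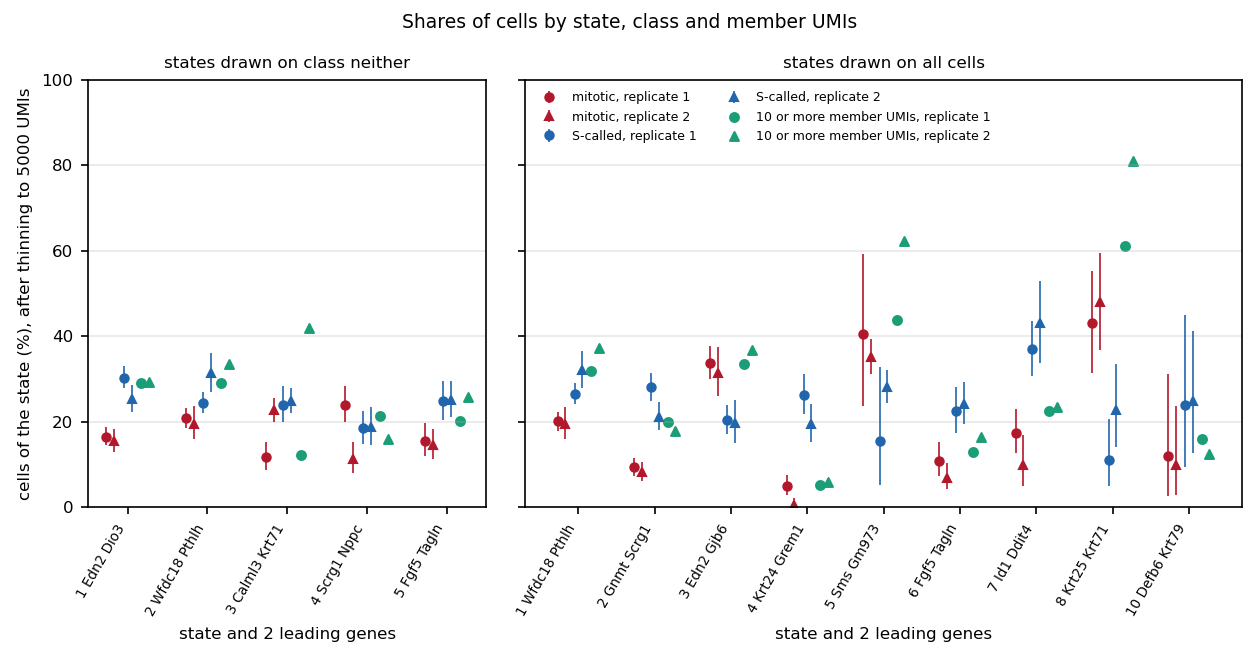
Share of cells (percent, after thinning to 5000 UMIs) that were mitotic, S-called or held at least 10 UMIs of the 38 genes, by state and replicate, for states drawn on cells of neither class (left) and on all cells (right). Bars are exact 95% intervals for counting error, and each state carries 2 of its leading genes. The Krt24 and Grem1 cluster lies lowest and the Krt25 and Krt71 cluster highest in cells rich in the 38 genes.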

How the data were processed

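The deposited files hold raw UMI counts per gene and barcode, which the authors made with Cell Ranger 3.1.0 and analysed with Seurat 3.1 on mm10, per the submitters' processing notes. For the gene models, the version is not given. The members and gene lists were chosen with earlier results of these data known. Barcodes were kept from 1000 genes upward and up to 10% mitochondrial UMIs, with medians of 9955 and 9797 UMIs. Intervals are exact binomial (95%) and cover counting error only.

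Cells were thinned to 5000 UMIs (seed 1) for classing. States came from Leiden clustering at resolution 0.5 on a random part (0.5) of the counts of cells in neither class, over 2000 variable genes, 30 components and 20 neighbours, and levels by state use the held-out part. Raw UMIs were summed per class or state and library and tested with edgeR's quasi-likelihood test (two-sided, TMM scaling, low-count filter, library as a term), with Benjamini-Hochberg adjustment over all genes tested and a threshold of 0.05. The class fit used 6 sums with 2 residual degrees of freedom. Same-numbered sums come from the same library, which pairs them, so the library term is the replicate block. In data simulated for mitotic against neither (12011 genes), the fit recovered 69% of genes changed 2-fold and 96% of those changed 4-fold. The simulation used a fixed dispersion that was not estimated from these sums and no difference between libraries beyond depth. Its changed genes were drawn from genes above a minimum count. These shares therefore do not measure how often the fit finds real changes in these data.

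Within each role, values were printed for the gene with the highest mean level and those with the largest and smallest fold of mitotic over S-called cells. Of further replication and nucleotide genes the 2 largest and 2 smallest folds were named. Pcna, Mcm3, Mcm5, Orc1, Tyms and the genes called between states were added after their values were seen. Alternatives were DESeq2, no library term, no low-count filter, other thinning, class minimums and clusterings, doublets removed, sums per state, and each library left out. Scrublet's own threshold marked 0 cells in either library, so the highest-scoring barcodes at 0.8% per 1000 barcodes were used. Tools were R 4.3.3, edgeR 4.0.16, DESeq2 1.42.0, Python 3.11.15, numpy 2.4.6, scipy 1.17.1, scanpy 1.11.5, scikit-learn 1.9.0, leidenalg 0.10.2 and matplotlib 3.10.9.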

Additional observations from a re-analysis of the deposited data

How the results depend on the processing

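The counts of genes higher than in neither stayed at 33 to 38 under every setting run except the fit without the replicate block. That fit called 23 higher in mitotic cells and 12 in S-called cells, beside 555 and 90 of all 12168 genes. In mitotic against S-called cells it called 0 higher and 0 lower (6 and 8 at an unadjusted p under 0.05), beside 1.64% and 0.074% of all genes. Between states it called 0 of 37 (2 at an unadjusted p under 0.05), beside 21.6% of all genes. For mitotic against S-called cells, DESeq2 called 5 higher and 8 lower (4.94% and 3.08% of all genes), thinning to 3000 UMIs gave 2 and 21 (6.78% and 5.83%), an S-call minimum of 2 gave 17 and 8 (13% and 10.4%), a minimum of 4 gave 3 and 15 (6.63% and 4.56%), and the minimum of 6, chosen after seeing the data, gave 0 and 23 (3.53% and 2.11%). Between states DESeq2 called 1 of 37 (24.6% of all genes), no low-count filter 12 of 38 (24.0%), resolution 0.8 gave 14 of 37 (45.5%) and clusters on all cells 36 of 38 (54.6%). In cells of neither class DESeq2 called 1 of 27 (18.6%), no low-count filter 5 of 38 (18.8%) and resolution 0.8 gave 5 of 28 (40.0%). The share of mitotic cells, 18.01% as the mean of the libraries, was 13.73% thinned to 3000 UMIs, 23.70% on all UMIs, 21.81% with minimums of 2 and 13.46% with minimums of 5 and 4, and that of S-called cells, 25.60%, was 15.41%, 35.27%, 39.21% and 16.73% under the same settings. Leaving out a library gave 17.86 to 18.15% and 25.37 to 25.83%. Counts of calls have no value with 1 library left out, because 1 library gives no test. For single genes the log2 fold of mitotic over S-called cells changed sign as follows, and the cause was not tested. With a minimum of 6 S-call UMIs the sign turned for Orc6 −0.35, Cdc45 −0.70, Gins1 −0.87, Gins3 −0.56, Gins4 −0.48, Pola1 −0.36, Pole −0.62, Rfc4 −0.39, Rfc5 −0.28, Rpa3 −0.066, Fen1 −0.53, Tyms −0.037, Rrm2 −0.37, Dut −0.36, Uhrf1 −0.83, Dnmt1 −0.50 and Clspn −0.35. With cells thinned to 3000 UMIs the sign turned for Orc6 −0.29, Cdc45 −0.54, Gins1 −0.50, Gins3 −0.13, Gins4 −0.31, Pola1 −0.24, Pole −0.44, Rfc4 −0.23, Fen1 −0.26, Rrm2 −0.24, Dut −0.23, Uhrf1 −0.51, Dnmt1 −0.39 and Clspn −0.14. At a minimum of 4 S-call UMIs the sign turned for Cdc45 −0.069, Gins1 −0.30, Gins4 −0.10, Pole −0.065, Uhrf1 −0.23 and Dnmt1 −0.096. Under a minimum of 5 mitotic UMIs the sign turned for Gins1 −0.046. Summing thinned UMIs only the sign turned for Gins1 −0.094. Without replicate 2 the sign turned for Gins1 −0.041. With likely doublets removed the sign turned for Prim1 0.041. Under a minimum of 2 mitotic UMIs the sign turned for Prim1 0.077 and Rfc2 0.018. At a minimum of 2 S-call UMIs the sign turned for Prim1 0.32, Pcna 0.11, Rfc1 0.099, Rfc2 0.18, Rpa1 0.018, Rpa2 0.10 and Lig1 0.031. With sums per state the sign turned for Prim1 0.025. Without replicate 1 the sign turned for Prim1 0.054 and Rfc2 0.034. Without replicate 2, Prim1 was at −0.047 and Rfc2 at −0.055.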
